A study of Homo sapiens with 6 samples.

Results

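The replication-dependent histone genes are described here in U87-MG, a human glioblastoma cell line. The members were the rows of the gene table whose symbol belongs to the H1-1 to H1-6, H2AC, H2BC, H3C or H4C series, which gave 66 of 61806 genes, with 6 of H1, 16 of H2A, 17 of H2B, 13 of H3 and 14 of H4. RNA was sequenced from 3 libraries of a negative control (NC), given as wildtype in the labels, and from 3 libraries labelled GRIK1 siRNA, given as GRIK1 knockdown, to look for the genes downstream of the glutamate receptor subunit GRIK1. The titles name siRNA while the series' design text names shRNA, and the study designed 3 siRNA sequences. Its text says that experiments after the choice of a sequence relied on siRNA1, while the titles carry the numbers 1 to 3, and no source states directly whether these are repeats. No source says that the libraries of a group came from separate cultures, so the p-values measure the spread between these libraries, which may be technical.

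The libraries differed in ways that the labels do not give. GRIK1 itself was counted 18, 9 and 8 times in NC 1 to 3, and 15, 20 and 20 times in GRIK1 siRNA 1 to 3. These reads are few, at 0.13 to 0.38 FPKM, and by them the targeted gene was not lower in GRIK1 siRNA. The paper reports an efficient knockdown in U87-MG from other measurements of GRIK1, with siRNA1 the most efficient sequence. Each direction below is that of the label. NC 3 stood apart: its log2 levels correlated with the other 5 libraries at 0.952 to 0.968, against 0.98 to 0.992 among those 5, and ribosomal protein genes took 8.45% of its counts against 4.35% to 4.99% elsewhere. The total counts were 11099909 to 14006968 per library. Of 10 glial and mesenchymal glioma markers, VIM, S100A6, SPARC, TNC and CD44 were at 24.8 to 1298 FPKM (FPKM values are scaled to gene length and library total), with SPARC higher in GRIK1 siRNA (log2 fold change 1.80). NES, OLIG2, GFAP, SOX2 and S100B were at 0 to 0.83 FPKM. Of 4 leukocyte markers, CD3E and AIF1 had 0 counts in all 6 libraries, PTPRC 0 to 5 and CD14 2 to 9. The 3 endothelial markers were at 0 to 0.05 FPKM. Of 4 epithelial markers, KRT8 was at 2.49 to 3.97 FPKM, EPCAM at 0.91 to 2.09, KRT18 at 0.52 to 0.97 and CDH1 at 0.09 to 0.13. Of 4 neuronal markers, SNAP25 was at 1.45 to 2.15 FPKM, SYT1 at 0.19 to 0.84, RBFOX3 at 0.1 to 0.33 and STMN2 at 0 to 0.03.

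Histones are the proteins that DNA is wound on: pairs of H2A, H2B, H3 and H4 form the core of the nucleosome, and H1 binds the DNA that links neighbouring cores. The genes described here are transcribed mainly in S phase, when new DNA has to be packed. Their mRNAs usually end in a short stem-loop, bound by the protein SLBP, in place of a poly(A) tail, although some of these genes are also known to give longer, polyadenylated transcripts. Other histone genes, such as those of H2A.Z and H3.3, are used throughout the cell cycle and make ordinary poly(A) mRNAs.

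The stem-loop is the feature these genes share that the choice by symbol did not use, and it bears on how the counts can be read. It was searched on the sense strand of the GENCODE 29 transcripts (GRCh38) as the letters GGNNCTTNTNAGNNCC. Of the 66 members, 62 had a transcript there and 30 had a model that ran past the stop codon. The letters were found in 26 of those 30 and in 0.271% of 58614 other genes. The windows below are from members whose counts are described later, 5′ to 3′ along the mRNA, with the stem-loop letters in capitals.
H2AC6: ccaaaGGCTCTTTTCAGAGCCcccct
H2BC21: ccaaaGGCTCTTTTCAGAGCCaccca
H2BC5: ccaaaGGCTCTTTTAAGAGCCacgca
H2AC11: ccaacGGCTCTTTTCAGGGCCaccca
H3C6: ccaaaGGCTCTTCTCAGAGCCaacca
H4C8: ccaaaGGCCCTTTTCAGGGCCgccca
H4C5: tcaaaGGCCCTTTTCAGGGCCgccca
All of these lie in exons, after the stop codon. They sit at chr6:26124664-26124689 (plus strand, H2AC6), chr1:149886183-149886208 (minus strand, H2BC21), chr6:26158582-26158607 (plus, H2BC5), chr6:27133510-27133535 (plus, H2AC11), chr6:26225591-26225616 (plus, H3C6), chr6:26285126-26285151 (minus, H4C8) and chr6:26204996-26205021 (plus, H4C5). The form in H2AC6 and H2BC21 was shared by 13 of the 26 members and the form in H4C8 and H4C5 by 4. The forms of H2AC11 and H3C6 each occurred in 1 member.

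Of the 4 members with the most counts, H2AC6 and H2BC21 had models that went on well past this point. The H2AC6 transcripts that hold the stem-loop run 1114 and 1128 bases beyond it, that of H2BC21 1729 bases, and 2 of H3C6 run 5 and 1862 bases beyond it. A poly(A) signal (AATAAA or ATTAAA in the last 40 bases of a transcript) was present in 20 members, 19 of which also held the stem-loop letters, and in 44.1% of the other genes. These 20 members carried 56.8% of all counts on the family. The counts follow the deposited gene models, however, and only 6 members have the same start and end there as in GENCODE 29. H2AC11 has 2250 bases in GENCODE 29 and 493 exonic bases in the deposited models, and H4C5 1487 and 412. A signal found in GENCODE 29 may therefore lie outside the gene that was counted. H1-2, H2BC12 and H2AC20 had models that stop at the stop codon, so their 3′ ends were not searched.

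Few reads fell on these genes in any library. The 66 members together took 362, 384 and 481 counts in NC 1 to 3, while GRIK1 siRNA 1 to 3 gave 692, 710 and 715. That is 32.6, 34.5 and 34.3 counts per 1000000 counted reads (CPM) against 55.9, 56.3 and 54.1. The groups did not overlap, and the mean was 33.8 ± 1.05 (SD, n = 3) in NC and 55.4 ± 1.14 (SD, n = 3) in GRIK1 siRNA, a ratio of 1.64 (1.65 without NC 3). From the summed counts the ratio was 1.64 with a 95% exact interval of 1.52 to 1.76, which, like all such intervals here, covers counting error only. With TMM scaling, which sets most genes equal between libraries, NC 3 moved up to 38.7 and the ratio was 1.54 (1.62 without NC 3). In RNA from whole cultures, fewer cells that make a transcript and less of it per cell cannot be told apart.

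**Figure D1:**
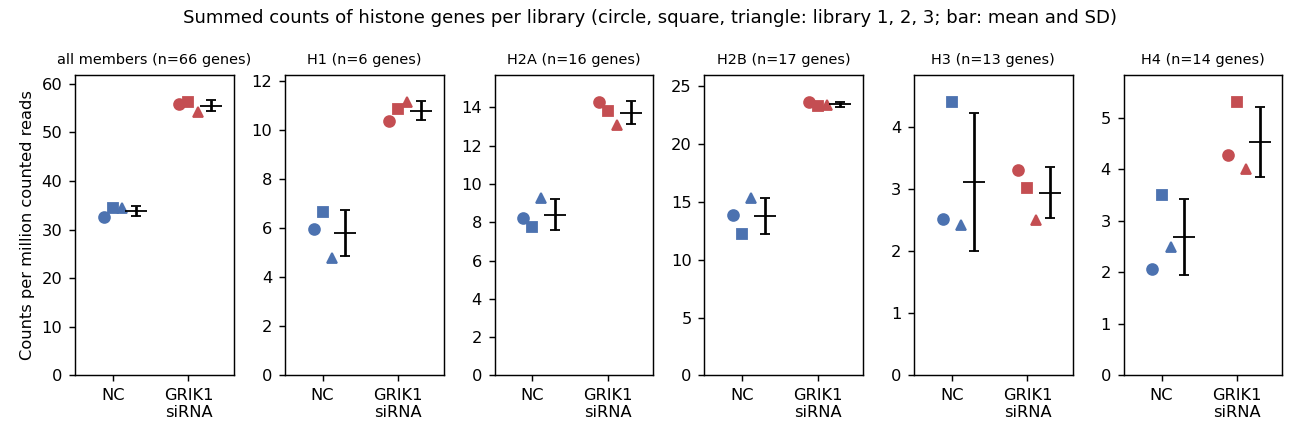
Summed counts of all 66 members and of each family in CPM, one point per library (circle, square and triangle for libraries 1, 2 and 3) with the group mean and SD as a bar, each axis starting at 0. The GRIK1 siRNA libraries lie above all NC libraries for the whole family and for H1, H2A, H2B and H4, while for H3 the groups overlap between 2.50 and 3.31.

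By family, the linker histones H1 had 5.95, 6.65 and 4.78 CPM in NC and 10.3, 10.9 and 11.1 in GRIK1 siRNA, with no overlap and a ratio of means of 1.86. H2A went from 8.40 ± 0.795 to 13.7 ± 0.601 (SD, n = 3 each; ratio 1.63) and H2B from 13.8 ± 1.56 to 23.5 ± 0.189 (SD, n = 3 each; ratio 1.70), again without overlap. H2A and H2B form the dimers at the outside of the nucleosome core. H4, which pairs with H3 at its centre, had 2.07, 3.51 and 2.50 CPM in NC and 4.28, 5.31 and 4.01 in GRIK1 siRNA, a ratio of 1.68. H4C8 alone held 51 of the 97 NC counts and 112 of the 173 GRIK1 siRNA counts of H4. The sum of H4 therefore does not show a rise across its members. H3 had 2.52, 4.41 and 2.43 in NC and 3.31, 3.01 and 2.50 in GRIK1 siRNA, so its groups overlapped, and its ratio of summed counts was 0.957 with an interval of 0.729 to 1.26. That interval lies below those of H1 (1.59 to 2.24), H2A (1.40 to 1.87), H2B (1.51 to 1.88) and H4 (1.31 to 2.19), but H3 rests on 28 to 49 counts per library and the difference between families was not tested. H3C6 alone held 78 of the 111 NC counts and 64 of the 112 GRIK1 siRNA counts of H3. The ratio of H3 is thus largely that of H3C6, and the other H3 members were not summed apart.

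The counts were spread very unevenly over the members. H2AC6, H2BC12, H1-2 and H2BC21 held 63.2% of all counts, and their sum was 21.1 CPM in NC and 35.2 in GRIK1 siRNA, a ratio of 1.67. The other 62 members went from 12.7 to 20.2 (ratio 1.59). No count was seen in any library for 9 members, and 37 had 3 counts or fewer in every library. A count of 0 in a library allows up to 3 counts, so at this depth those genes could not be followed one by one. Over all 66 members, the summed CPM were higher in GRIK1 siRNA for 40 and lower for 17, many of them at a few counts. Among all genes, 23902 to 24993 had a count in an NC library and 26134 to 27049 in a GRIK1 siRNA library.

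Members with larger gene models carried more of the reads. The exonic size in the table ran from 386 to 4265 bases. With H1 left out, 14 members of 600 bases or more, a boundary set after the values were seen, held 54.3% of the counts, with a median mean level of 0.449 FPKM. The 46 smaller members held 27.2%, with a median of 0.128 FPKM, and 1 of them, H2BC12, had a mean of 10 counts or more against 6 of the 14 larger members. The larger members went from 17.8 to 30.5 CPM (ratio 1.71) and the smaller from 10.2 to 14.1 (ratio 1.39), each without overlap of the groups. Split by the poly(A) signal letters instead, the 20 members in which they were found had a ratio of 1.65 and the other 46 a ratio of 1.63. Only 30 of the 66 members had a model past the stop codon, so most of the 46 had no 3′ end to search. The 2 ratios therefore do not compare members with and without a signal.

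**Figure D2:**
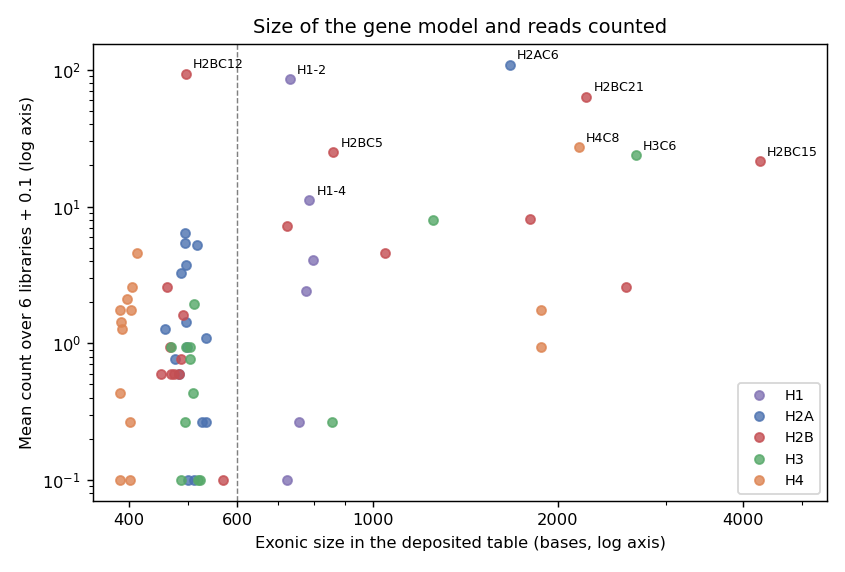
Mean count over the 6 libraries plus 0.1 (log axis) against the exonic size of each member in the deposited table (bases, log axis), coloured by family, with names for members with a mean of 10 counts or more and a dashed line at 600 bases. Most members under 600 bases lie below 10 counts, with H2BC12 as the exception.

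RNAs known to carry no poly(A) tail were looked up in the same libraries. Of 28 such genes listed, 8 passed the level filter and 0 passed the edgeR test at an adjusted p under 0.05 (3.09% of all genes did), with 1 at an unadjusted p under 0.05 (25.1% of all genes) and 0 called by DESeq2 or limma-trend. That 1, the small nucleolar RNA SNORD17, named after its values were seen, had 1, 1 and 0 counts in NC and 5, 3 and 5 in GRIK1 siRNA (log2 fold change 2.33, and 1.78 without NC 3, edgeR adjusted p = 0.147), and it passed the filter only through GRIK1 siRNA. RN7SK, RPPH1, RNU7-1 (the small nuclear RNA that guides histone 3′ end cleavage) and RNU1-1 had 0 counts in all 6 libraries. RN7SL1, the RNA of the signal recognition particle, was at 172, 474 and 153 FPKM in NC and at 361, 327 and 318 FPKM in GRIK1 siRNA. It was therefore lowest in NC 1 and NC 3 and highest in NC 2 (log2 fold change 0.27, SE 0.39, edgeR adjusted p = 0.68). The fold change was 0.94 without NC 2 (adjusted p = 0.0943), 0.02 without NC 1 and 0.03 without NC 3. SNORD3A, a small nucleolar RNA, had 26, 218 and 62 counts in NC and 85, 53 and 47 in GRIK1 siRNA (log2 fold change -0.91, and 0.37 without NC 2), and SNORA73B had 13 to 28 counts in NC and 17 to 29 in GRIK1 siRNA (-0.06). How RNA was selected or depleted for these libraries is not given in the sources used here, and its part in the histone counts was not tested.

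For the test of single genes, 16 members with a mean of at least 0.5 FPKM entered an edgeR quasi-likelihood fit over 15870 genes with Benjamini-Hochberg adjustment. They were 2 of H1, 6 of H2A, 4 of H2B, 2 of H3 and 2 of H4. H3C10 (0.502 FPKM) and H2AC17 (0.505) lay just inside the filter and H4C3 (0.497) and H2BC9 (0.433) just outside. At an adjusted p under 0.05, 1 of the 16, H1-2, was called, as higher. Of all genes tested, 3.09% were called, 1.61% as higher and 1.48% as lower, and 1.41% were called with an absolute log2 fold change over 1, among them no member. An unadjusted p under 0.05 was found for 7 members, all higher, beside 25.1% of all genes in either direction and 12% as higher.

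The log2 fold change was above 0 for 13 of them, beside 48.6% of all genes tested. Their median was 0.70 against -0.02 for all genes. In 9 members the TMM-scaled CPM of the GRIK1 siRNA libraries all lay above those of NC, and in 0 below, beside 19.4% and 19% of all genes. Without NC 3, 7 members were called, all higher: H1-2, H2AC6, H2AC20, H2BC5, H2BC12, H2BC21 and H4C8. That count stands beside 35.2% of all genes called without NC 3, 16.9% as higher and 18.3% as lower. When any one of the other 5 libraries was left out, 0 members and 0 of the 15870 genes were called, with 4 to 7 members at an unadjusted p under 0.05. The filter on mean level passed members in part through the group where they were higher. H2AC20, H2AC8, H3C10 and H2AC17 averaged 0.31 to 0.37 FPKM in NC and passed only through GRIK1 siRNA, while no member passed only through NC. These counts and the median were therefore partly set by the filter and describe the 16, not the 66. The 50 members that did not pass it summed to 4.80 ± 0.932 CPM in NC and 7.27 ± 0.535 in GRIK1 siRNA (SD, n = 3 each), a ratio of 1.51 with no overlap.

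**Figure D3:**
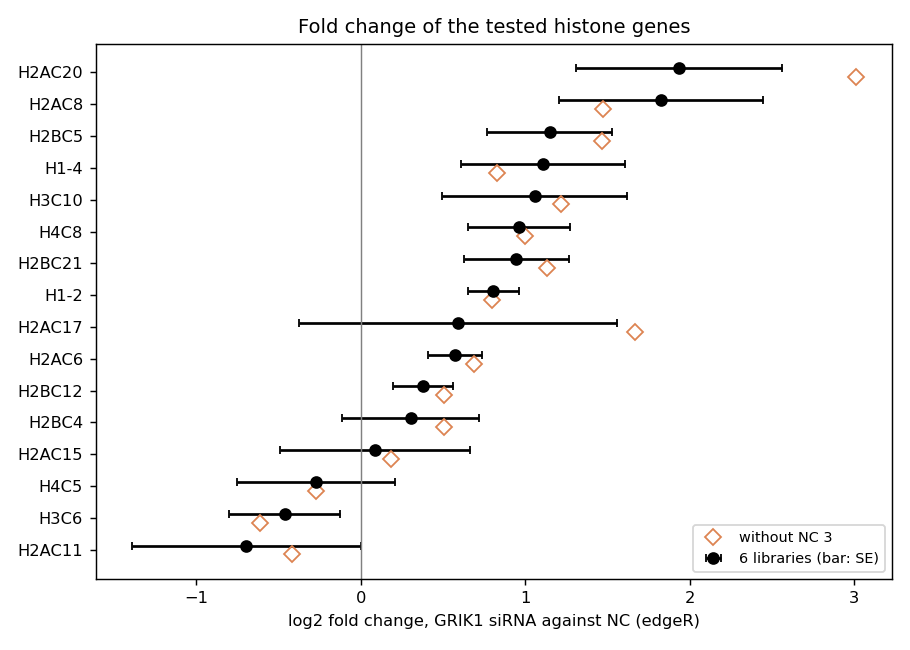
Log2 fold change of the 16 tested members, GRIK1 siRNA against NC, from edgeR (black points, bars are SE) and the same without NC 3 (open diamonds). 13 of the 16 points lie right of 0, and H2AC20 lies furthest right, at 1.94 with all libraries and 3.01 without NC 3.

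Of the linker histones, which compact chromatin between nucleosomes, 2 were tested. H1-2 (ENSG00000187837, chr6:26055740-26056470, minus strand) was at 7.27, 6.52 and 5.96 FPKM in NC and 12.04, 12.25 and 12.32 FPKM in GRIK1 siRNA, with every GRIK1 siRNA library above every NC library. H1-2 rose by a log2 fold change of 0.81 (SE 0.16, edgeR adjusted p = 0.0433). Its fold change was 0.80 without NC 3 (adjusted p = 0.00112), but leaving out any one of the other 5 libraries took the edgeR adjusted p to between 0.0829 and 0.237 at a fold change of 0.78 to 0.85.

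H1-4 had 4, 11 and 4 counts in NC and 13, 14 and 20 in GRIK1 siRNA, so the groups did not overlap at low depth (log2 fold change 1.11, SE 0.50, edgeR adjusted p = 0.214). NC 2 was the high control here, and without it the fold change was 1.79. H1-5 had 1 to 7 counts in NC and 4 or 5 in GRIK1 siRNA and was not tested. H1-6, known as a testis histone, had 0 counts in all 6 libraries.

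Among the H2A genes, H2AC6 (ENSG00000180573, chr6:26124145-26139116, plus strand) was the most abundant. It was at 4.0, 3.83 and 4.28 FPKM in NC and 6.49, 6.70 and 6.08 FPKM in GRIK1 siRNA. The groups were well apart, with a log2 fold change of 0.57 (SE 0.16, edgeR adjusted p = 0.0968), which was 0.69 without NC 3 (adjusted p = 0.00154). H2AC6 and H1-2 both passed in limma-trend on log2(FPKM + 1).

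H2AC20 and H2AC8 had few reads and passed the filter on mean FPKM only through the GRIK1 siRNA group, where they averaged 1.65 and 1.27 FPKM against 0.36 and 0.34 in NC. H2AC20 had 1, 1 and 5 counts in NC and 13, 9 and 9 in GRIK1 siRNA (log2 fold change 1.94, SE 0.63, edgeR adjusted p = 0.123). Without NC 3, which held 5 of its 7 control counts, the fold change was 3.01. H2AC8, named after its values were seen, had 1, 4 and 1 counts in NC and 8, 9 and 8 in GRIK1 siRNA (1.82, SE 0.62, adjusted p = 0.134). H2AC11 had 9, 1 and 9 counts in NC and 4, 4 and 5 in GRIK1 siRNA, with NC 2 below and the other NC libraries above all GRIK1 siRNA libraries (-0.69, SE 0.69, adjusted p = 0.551). Its fold change was -1.18 without NC 2 and -0.32 without NC 1.

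The H2B genes held the member with the highest level. H2BC12 (ENSG00000197903, chr6:27146361-27146855, minus strand) was at 12.2, 12.2 and 13.7 FPKM in NC and 15.99, 19.53 and 17.43 FPKM in GRIK1 siRNA, without overlap. Its log2 fold change was 0.38 (SE 0.18, edgeR adjusted p = 0.235) and 0.51 without NC 3 (adjusted p = 0.0232). H2BC21 (ENSG00000184678, chr1:149884459-149886682, minus strand) was at 1.66, 1.09 and 1.70 FPKM in NC and 3.96, 1.99 and 3.27 FPKM in GRIK1 siRNA. GRIK1 siRNA 2 lay close to the NC libraries and the other 2 well above them (0.95, SE 0.32, adjusted p = 0.133, and 1.13 without NC 3). H2BC5 (ENSG00000158373, chr6:26158122-26171349, plus strand) was at 1.26, 1.04 and 1.74 FPKM in NC and 2.53, 4.60 and 2.64 FPKM in GRIK1 siRNA. Here GRIK1 siRNA 2 was the highest library (1.15, SE 0.38, adjusted p = 0.128, and 1.47 without NC 3). H2BC5 overlaps LARP1P1 on its own strand and ENSG00000283064 on the other, and how the counting treated strand is not given in the sources used here, and reads of these genes cannot be told apart there.

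Of the 13 H2B genes below the filter, 9 had more summed CPM in GRIK1 siRNA, 3 had less and 1 had 0 counts throughout. H2BC15 and H2BC6 are named after their values were seen. H2BC15, whose 4265 exonic bases kept it at 0.397 FPKM, had 14, 12 and 21 counts in NC and 25, 25 and 31 in GRIK1 siRNA, a ratio of 1.63 with a 95% exact interval of 1.13 to 2.39. H2BC6 was at 0 counts throughout NC and at 3, 6 and 6 in GRIK1 siRNA, and it overlaps ENSG00000283064 on the opposite strand.

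**Figure D4:**
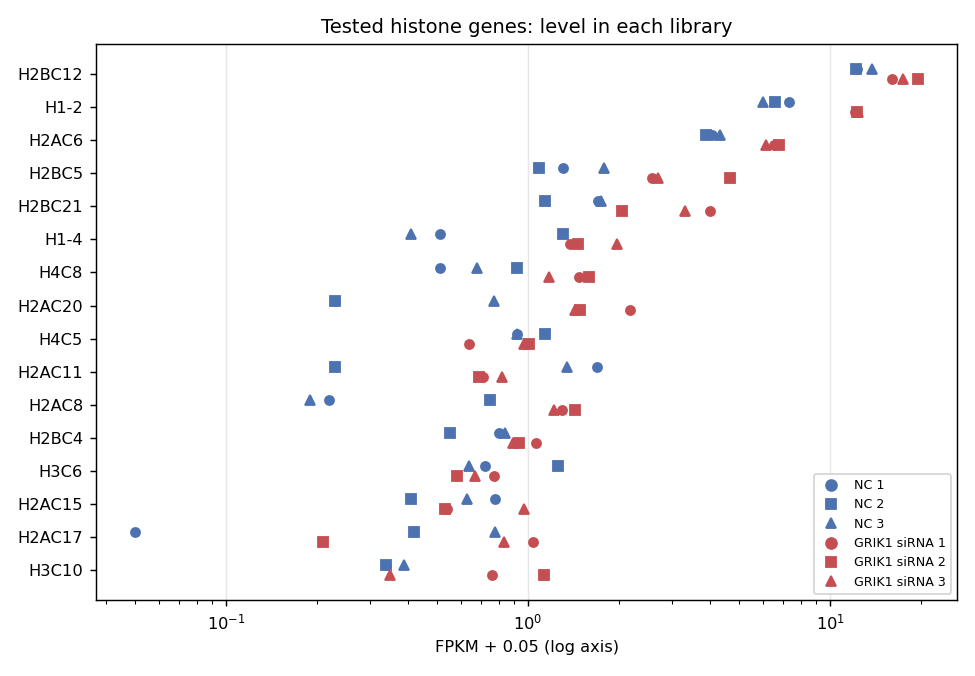
FPKM plus 0.05 (log axis) of the 16 tested members in each library, ordered by mean level from H2BC12 at the top, NC in blue and GRIK1 siRNA in red with 1 shape per library number. For 10 members, H1-2 and H2AC6 among them, all red points lie right of all blue points, as for 23.4% of all genes tested, against 9 on the TMM-scaled CPM, and members below 1 FPKM scatter widely within a group.

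H3 was the family whose summed counts overlapped between the groups, and most of its counts were of H3C6. H3C6 (chr6:26224199-26227473, plus strand) was at 0.67, 1.21 and 0.59 FPKM in NC and 0.72, 0.53 and 0.62 FPKM in GRIK1 siRNA. Its groups overlapped apart from a high NC 2 (log2 fold change -0.46, SE 0.34, edgeR adjusted p = 0.410, and -0.12 without NC 2). H3C10 had 4, 4 and 6 counts in NC and 11, 17 and 5 in GRIK1 siRNA, where GRIK1 siRNA 3 lay within the range of NC (1.06, SE 0.56, adjusted p = 0.276). With means of 0.307 FPKM in NC and 0.697 in GRIK1 siRNA, H3C10 passed the filter only through GRIK1 siRNA. H3C2 had 0 to 5 counts in NC and 0 to 4 in GRIK1 siRNA and was not tested. H3C14 and H3C15, whose 1656 bases are identical, both stood at 0 counts in every library, and how reads that fit both copies were counted is not given in the sources used here.

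Of the H4 genes, H4C8 (ENSG00000158406, chr6:26277609-26285638, minus strand) had the most reads. It was at 0.46, 0.87 and 0.63 FPKM in NC and 1.42, 1.54 and 1.12 FPKM in GRIK1 siRNA, with no overlap (log2 fold change 0.96, SE 0.31, edgeR adjusted p = 0.122, and 1.00 without NC 3). It overlaps ENSG00000289447 on the opposite strand over 287 bases. H4C5 held 4, 5 and 5 counts in NC and 3, 5 and 5 in GRIK1 siRNA, nearly level between the groups (-0.27, SE 0.48, adjusted p = 0.766). H4C3 had 0, 4 and 4 counts in NC and 3, 4 and 0 in GRIK1 siRNA and was not tested.

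By position, the 66 genes lie in 3 stretches of GRCh38. On chromosome 6, 34 members between 25726063 and 26285638 went from 19.2 ± 1.89 CPM in NC to 31.9 ± 1.81 in GRIK1 siRNA (ratio 1.66), and 21 members between 27125897 and 27893891 from 10.2 ± 0.976 to 14.6 ± 0.907 (ratio 1.42; SD, n = 3 throughout). On chromosome 1, 11 members between 149782689 and 149887965 went from 4.37 ± 0.935 to 8.94 ± 2.20 (ratio 2.05). The groups did not overlap in any of the 3 stretches. On chromosome 1, H2BC21 alone held 121 of the 159 NC counts and 261 of the 341 GRIK1 siRNA counts. In the second stretch of chromosome 6, H2BC12 held 229 of the 374 NC counts and 334 of the 557 GRIK1 siRNA counts. The ratios of these 2 stretches are thus largely those of 1 gene each, and the difference between stretches was not tested.

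Many H2A and H2B genes share a promoter, facing away from each other. There were 12 such head-to-head pairs with a gap of under 500 bases, 11 of them of an H2A and an H2B gene. In some pairs the members differed widely in reads. H2BC12 had 67 to 122 counts per library while its partner H2AC12, 250 bases away, had 0 to 3. H2AC6 had 71 to 141 counts and H2BC4, 218 bases away, 4 to 9. For H2BC21 and H2AC20, 235 bases apart, both members had more FPKM in every GRIK1 siRNA library than in any NC library, and of H2BC8 and H2AC8, 232 bases apart, H2BC8 had 0, 1 and 0 counts in NC and 2, 4 and 2 in GRIK1 siRNA. The difference within a pair was not tested. H2BC11 had 0, 1 and 6 counts in NC and 8, 7 and 5 in GRIK1 siRNA beside the values of H2AC11 above, 247 bases away, and H2AC15, 169 bases from H2BC15, had 4, 2 and 4 counts in NC and 3, 3 and 6 in GRIK1 siRNA.

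The promoters of these families hold different letters. RefSeq promoters (GRCh38.p14, from 250 bases before to 50 after each start) were matched for 61 members and searched on both strands. The octamer ATGCAAAT (ATTTGCAT on the other strand), the recognition sequence of the factor POU2F1, was in 14 of 17 H2B and 11 of 15 H2A promoters, in 1 of 11 of H3, and in 0 of 6 of H1 and 0 of 12 of H4, against 1.77% of all 35116 promoters. The 1 match of H3, listed for H3C4, comes from an entry with the same coordinates as that of the H2A gene H2AC7, so it is the same stretch counted again. TATAAA was in 68.9% of the 61 promoters against 11.5% of all, and CCAAT in 85.2% against 34.6%, with 3 of 12 H4 promoters holding CCAAT and every promoter of the other families. These windows show the octamer, and TATAAA where it follows, in capitals, 5′ to 3′ along the named gene.
H2BC12: cttATTTGCATgagaggtcctaTATAAAaa
H2BC21: ctaATTTGCATaaggtggtTATAAAagaat
H2AC20: cttATGCAAATtagggctccgaaagtcgtt
H2AC6: gctATGCAAATgaggtatgaaagtacagct
They are at chr6:27146878-27146907 (minus strand), chr1:149886702-149886731 (minus), chr1:149886718-149886747 (plus) and chr6:26124039-26124068 (plus), in the order given, all upstream of the first exon. The windows of H2BC21 and H2AC20 overlap, and their octamers are the same 8 bases read from either strand. A match is a description of the letters only.

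The lists of other genes of histone supply had medians near or below 0. Of 16 other histone genes, mostly the variants used throughout the cell cycle, 12 were tested and 0 were called by edgeR (2 as lower in DESeq2, which called 1684 genes in all), with 3 at an unadjusted p under 0.05, beside 3.09% and 25.1% of all genes in edgeR, and their median log2 fold change was -0.26. H2AZ1, the H2A.Z gene, was at 78.5, 84.0 and 156 FPKM in NC and 62.9, 63.6 and 61.2 FPKM in GRIK1 siRNA (log2 fold change -0.88, SE 0.30, edgeR adjusted p = 0.137). NC 3 was far above the other controls, and without it the value was -0.40 (adjusted p = 8.52e-06). H3-3B, an H3.3 gene, was at 49.2 to 59.4 FPKM in NC and 51.0 to 52.0 FPKM in GRIK1 siRNA (-0.14, and 0.02 without NC 3), and the linker variant H1-10 was at 48.0 to 77.0 and 53.3 to 63.8 FPKM (-0.25). H1-10 was at -0.37 without NC 3 (edgeR adjusted p = 0.000872) and at -0.13 without NC 1. Without NC 3, 5 of the 12 were called lower and 0 higher, beside 18.3% and 16.9% of all genes, and their median was -0.10. With all libraries, 4 of the 12 had a fold change above 0 and 8 below. H4-16, H2BU1 and H3-4 are named after their values were seen. H4-16 was at 0.85 (SE 0.40, edgeR adjusted p = 0.228). H2BU1, not tested, had 17, 15 and 15 counts in NC and 38, 45 and 38 in GRIK1 siRNA. H3-4, also not tested, had 0, 1 and 1 in NC and 1, 5 and 4 in GRIK1 siRNA.

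Of 29 genes for the transcription and 3′ end processing of histone mRNA, all tested, 0 were called higher and 1 lower, beside 1.61% and 1.48% of all genes, with a median of 0.01. The called gene was E2F1, a transcription factor of the G1/S transition, at 8.37, 8.69 and 6.58 FPKM in NC and 3.36, 2.42 and 3.43 FPKM in GRIK1 siRNA (log2 fold change -1.44, SE 0.18, edgeR adjusted p = 0.0236). Leaving out any one library but NC 3 took its adjusted p to between 0.0677 and 0.194. SLBP, the stem-loop binding protein, was at 30.7, 33.3 and 46.2 FPKM in NC and 27.0, 28.7 and 27.6 FPKM in GRIK1 siRNA (-0.51, edgeR adjusted p = 0.184, and -0.23 with adjusted p = 0.0167 without NC 3). NPAT, the coactivator of histone gene transcription, had a fold change of -0.11 and its partner CASP8AP2 of 0.21. For CASP8AP2 the value was 0.07 without NC 3 and 0.315 without NC 2. The cap-binding subunit NCBP2 was at -0.27 and SRRT, which joins the cap complex to RNA processing, at 0.75, with edgeR adjusted p of 0.177 and 0.181. Without NC 3 they were at -0.23 (adjusted p = 0.00226) and 0.44 (adjusted p = 3.39e-06). Without NC 3, 8 of the 29 were called higher and 5 lower, beside 16.9% and 18.3% of all genes, and their median was 0.08.

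Of 24 histone chaperones, which carry histones to and from DNA, 1 was called higher and 0 lower, beside 1.61% and 1.48% of all genes, and the median was -0.18. HIRA, which deposits H3.3, was at 3.77, 3.87 and 2.64 FPKM in NC and 6.52, 5.82 and 5.76 FPKM in GRIK1 siRNA, and rose by 0.74 (SE 0.15, edgeR adjusted p = 0.0464). The call was lost in limma-trend (adjusted p = 0.0599 on log2(FPKM + 1)) and on leaving out any one library but NC 3 (0.0835 to 0.233). SET, NAP1L1 and SSRP1, the most abundant of the list, had fold changes of -0.52, -0.47 and -0.31, with edgeR adjusted p of 0.181, 0.142 and 0.193. Without NC 3 they were at -0.24, -0.30 and -0.20, with edgeR adjusted p of 0.000555, 9.6e-05 and 0.00668. Without NC 3, 3 were called higher and 7 lower, beside 16.9% and 18.3% of all genes, and the median of the list was -0.09.

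Of 28 genes of S phase, the phase in which the members are known to be transcribed, 8 fell and 0 rose, beside 1.48% and 1.61% of all genes, and 25 of 28 had a negative fold change, with a median of -0.61. CLSPN, a checkpoint mediator at replication forks, was at 0.78, 0.79 and 0.78 FPKM in NC and 0.37, 0.37 and 0.40 FPKM in GRIK1 siRNA (log2 fold change -1.13, SE 0.17, edgeR adjusted p = 0.0304). The loading factor CDC6 fell by 1.05 on the log2 scale, the ribonucleotide reductase subunit RRM2 by 0.88, the helicase subunits MCM5 and MCM3 by 0.88 and 0.72, and the nucleotide enzyme DUT by 0.73, each with an edgeR adjusted p between 0.0303 and 0.0393. PCNA, the sliding clamp, was at 43.4 to 58.0 FPKM in NC and 40.2 to 44.8 FPKM in GRIK1 siRNA (-0.29, adjusted p = 0.339, and -0.07 without NC 3). In 16 of the 28 the groups did not overlap and GRIK1 siRNA was lower, beside 19% of all genes, and in 2, TK1 and POLA1, it was higher (fold changes 0.39 and 0.25), beside 19.4%. Without NC 3, 19 were called lower and 1 higher, with a median of -0.53, beside 18.3% and 16.9% of all genes. On leaving out any one of the other 5 libraries 0 were called, and limma-trend called 3, without CLSPN, MCM5 and MCM3. The part of S phase in the histone counts was not tested.

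**Figure D5:**
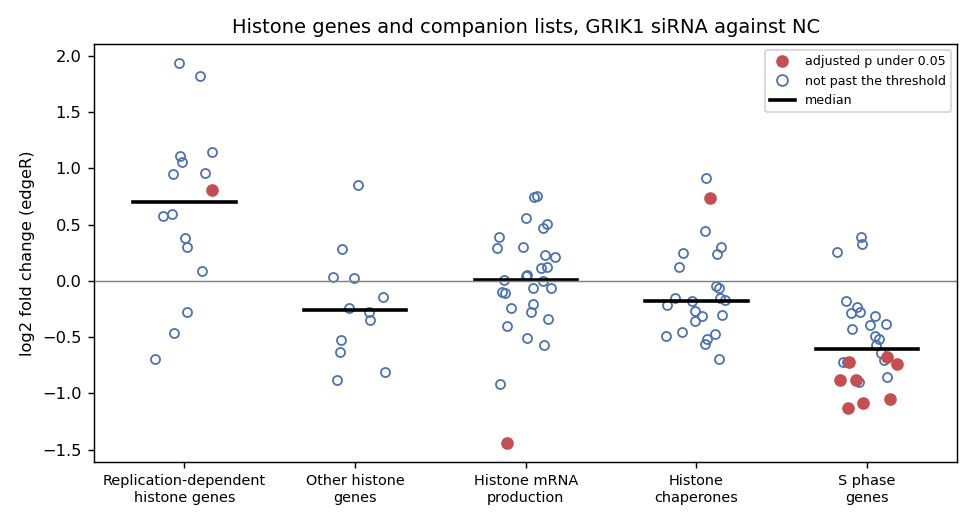
Log2 fold change (edgeR) of each tested gene of the replication-dependent histones and of 4 companion lists, with the median as a bar and filled points for an adjusted p under 0.05. The median of the histone members is 0.70 and that of the S phase genes -0.61, where 8 filled points lie below 0.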

How the data were processed

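The authors deposited 1 table of 61806 genes with raw counts per gene and FPKM values, which the authors computed from those counts and the exonic size of each gene. The deposited FPKM values were recovered from the counts in 100.0% of cells, within 0.006. The submitters' processing notes name cutadapt 1.9.1, HISAT2, HTSeq and GRCh38, with no setting for strand or for reads with several matches. The study's methods name no test for these libraries.

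Libraries were grouped by their titles. Counts were tested for genes whose mean FPKM reached 0.5, with the quasi-likelihood test of edgeR 4.0.16 (R 4.3.3, TMM scaling, no block), with Benjamini-Hochberg adjustment over all 15870 genes and calls at an adjusted p under 0.05. Members that did not pass were described by their counts. Sums over members were given as counts per 1000000 counted reads (CPM), with exact 95% binomial intervals for ratios of summed counts, and no sum or list was tested.

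Named members were those called, the 3 with the highest mean FPKM in each family, and the 5 largest rises and 5 largest falls with a mean of at least 10 counts. Of each companion list, the called genes (at most 5) and the 3 with the highest mean FPKM were named, with SLBP, NPAT and CASP8AP2. The members and lists were chosen with earlier results of these data known. The fits were first tested on simulated data, where edgeR recovered 64 of 100 2-fold and 98 of 100 4-fold changes. Changes were placed only in genes with a mean of at least 50 counts, which 4 of the 66 members reach. No simulated library stood apart as NC 3 did, so the simulation does not cover most members or that library. DESeq2 1.42.0 and limma 3.58.1 (limma-trend on log2(FPKM + 1)) were alternatives, beside other scalings and filters, a pseudocount of 0.1, a replicate block, a threshold on fold change and the omission of each library. Transcripts and promoters were read from GENCODE 29 and RefSeq.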

Additional observations from a re-analysis of the deposited data

How the results depend on the processing

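The median log2 fold change of the tested histone members was 0.70, and it was 0.98 with a filter at a mean of 1 FPKM, 0.48 in limma-trend on log2(FPKM + 1) and 0.86 with a pseudocount of 0.1. The 1 histone gene called higher became 2 in limma-trend with either pseudocount, 0 with the replicate block and 0 with the added fold threshold, and between 0 and 7 when a library was left out. The 490 genes called in all became 1403 without a filter, 1684 in DESeq2, 280 in limma-trend with a pseudocount of 0.1, 0 with the replicate block and 224 with the fold threshold, and 0 to 5591 when a library was left out, the most without NC 3. With the replicate block, in which 7 members had an unadjusted p under 0.05, the counts called lower were also 0 for processing genes and S phase genes and 0 chaperones were called higher. The replicate numbers did not pair the libraries: deviations of same-numbered libraries correlated at -0.07, 0.04 and -0.04. S phase genes called lower were 14 in DESeq2 and 3 in limma-trend with either pseudocount, and 0 to 19 when a library was left out, with 0 to 1 higher. Chaperones called higher were 2 without a filter, 3 in DESeq2, 0 in limma-trend and 0 to 3 over the omissions, and those called lower were 1 in DESeq2 and 0 to 7. Processing genes called higher were 1 without a filter, 1 at 1 FPKM, 2 in DESeq2 and 0 to 8, and those called lower 2 at 1 FPKM, 2 with filterByExpr, 2 in DESeq2 and 0 to 5. Other histone genes called higher were 1 without a filter and 1 with filterByExpr, and those called lower 3 without a filter, 2 in DESeq2 and 0 to 5. The sign turned for H3-3B (0.0211 without NC 3, omissions from -0.223), SNORD3A (0.369 without NC 2, omissions from -1.36), SNORA73B (0.0619 and 0.0792 in limma-trend, omissions from -0.343 to 0.232) and NPAT (0.00211 and 0.00523 in limma-trend, omissions from -0.209 to 0.0994). The cause of these changes was not tested. Of the values for single genes under an alternative, 390 stayed on their side of the threshold with their sign, and 9 turned sign without passing it. A further 62 dropped below it and 17 passed it, while 3 had no adjusted p in DESeq2. The filter on mean FPKM left out 50 of the 66 members, and without it 57 were tested and 1 was called.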
